A study of Homo sapiens with 2 samples.

Results

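Secreted and membrane-bound metalloproteinases and their tissue inhibitors were compared between MDA-MB-231 cells carrying a short hairpin RNA against CDK14 (CDK14-sh) and cells with a scramble control. The genes were MMP1, MMP3, MMP9 and MMP14, the inhibitors TIMP1, TIMP2 and TIMP3, and the adamalysins ADAM9, ADAM17 and ADAMTS1. They were chosen by symbol, and all 10 had a row among the 29452 gene rows of the table. MDA-MB-231 is a human cell line from a triple-negative breast tumour, and CDK14 is a kinase that works with cyclin Y and acts on LRP6, a co-receptor for Wnt. A group was 1 library of stranded mRNA sequencing, so differences could not be set against replicate spread, and p-values are left out. The sources used here do not give the hairpin sequence, the number of hairpins or clones, or the time after knockdown.

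Matrix metalloproteinases (MMPs) are zinc enzymes that cut collagens and other matrix proteins, and they are made as proenzymes whose prodomain must be removed. ADAM proteases cut membrane proteins close to the cell surface and release their outer part, which is called shedding, and ADAMTS proteases are secreted and cut proteoglycans. TIMPs bind the active site of these enzymes and block them, with different preferences. In breast cancer cells the families are known for matrix invasion and for releasing growth factors.

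Levels are RPKM, reads normalised to exon length and to the reads assigned to genes in the library. Folds are ratios of RPKM between the libraries. Ranges in parentheses hold counting error alone, as 95% limits by the Clopper-Pearson method. The libraries held 15478156 assigned reads (CDK14-sh) and 17217564 (scramble). CDK14 itself stood at 0.548 RPKM (58 reads) under CDK14-sh and 2.48 RPKM (292 reads) under scramble. All 10 genes listed as markers of this line passed 1 RPKM, with a summed level of 613 RPKM under CDK14-sh and 930 under scramble, and 9 of them were lower under CDK14-sh. ESR1, PGR and CDH1, which the line is known to lack, had 8, 0 and 0 reads under CDK14-sh and 2, 3 and 2 under scramble, while EPCAM (5.46 and 5.33 RPKM), GATA3 (2.56 and 2.50 RPKM) and ERBB2 (2.96 and 2.33 RPKM) passed 1 RPKM. The ratio of ERBB2 was 1.27 (1.11 to 1.45). Of the 7 fibroblast markers, COL1A1 passed 1 RPKM and DCN, LUM and FAP were listed at 0 in both libraries. Endothelial markers summed to 1.65 and 1.86 RPKM, with VWF at 0. Of the leukocyte markers, CD68 (126 and 128 RPKM) passed 1 RPKM and PTPRC had 3 reads in each library. The part of these marker levels in the ratios below was not tested.

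The collagenase gene MMP1 was by far the most abundant of the 10 and was higher under CDK14-sh, whereas MMP14 was near the same level in both libraries. MMP3 and MMP9 were barely detected. MMP1 encodes interstitial collagenase, which cleaves fibrillar collagen. Its row lies on chromosome 11 from 102789920 to 102798160, minus strand (GRCh38). MMP1 stood at 965 RPKM under CDK14-sh (29410 reads) and 689 RPKM under scramble (23366 reads), which is 1.40-fold higher (1.38 to 1.42). By level it ranked 34 under CDK14-sh and 47 under scramble among all 29452 rows. Among 10658 protein-coding rows whose higher library reached 1 RPKM, 91.1% had a lower ratio than MMP1. In bulk RNA, fewer cells that make a transcript and less transcript per cell cannot be told apart, here or for the genes below.

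**Figure D1:**
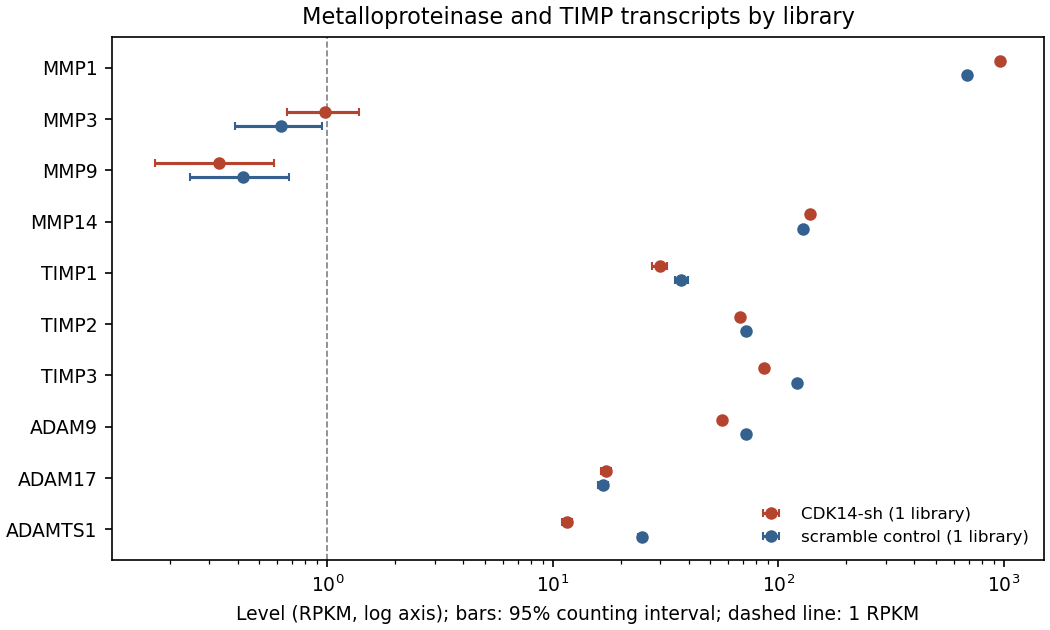
Levels of the 10 transcripts in RPKM on a log axis, 1 point per library, with 95% counting intervals as bars and a dashed line at 1 RPKM. MMP1 stands at 965 and 689 RPKM, and MMP3 and MMP9 lie under 1 RPKM with overlapping intervals between the libraries.

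The MMP1 row shares exon bases with WTAPP1, a pseudogene row on the opposite strand. WTAPP1 stood at 255 RPKM under CDK14-sh (13122 reads) and 180 RPKM under scramble (10346 reads), a ratio of 1.41 (1.37 to 1.45). Its reads came to 44.6% of those of MMP1 under CDK14-sh and 44.3% under scramble. The quotient of both rows differed between the libraries by a factor of 1.01 (0.977 to 1.04). The sources used here do not say whether counting used strand, so the origin of reads from the shared exons cannot be told.

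MMP1 belongs to a cluster of metalloproteinase genes on chromosome 11, and its level was not shared by the neighbours in the table. MMP3 encodes stromelysin-1, which cuts proteoglycans and activates other MMPs, and lies from 102835801 to 102843803, minus strand. It had 31 reads under CDK14-sh (0.978 RPKM) and 22 under scramble (0.624 RPKM), a ratio of 1.57 whose interval held 1 (0.879 to 2.84). The MMP3 row also shares exon bases with WTAPP1, so the origin of these few reads cannot be told. MMP10 had 2 reads under CDK14-sh and 4 under scramble, MMP7 had 1 in each, and MMP13 had 1 under CDK14-sh and 0 under scramble. MMP1 thus stood 986 times above MMP3 under CDK14-sh and 1104 times above it under scramble, both per exon length. Both multiples are rough, since the counting interval of MMP3 ran from 0.664 to 1.39 RPKM under CDK14-sh and from 0.391 to 0.945 under scramble.

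MMP9, the gelatinase B gene on chromosome 20 (46008908 to 46016561, plus strand), had 12 reads under CDK14-sh (0.332 RPKM) and 17 under scramble (0.423 RPKM). The ratio of 0.785 had an interval from 0.342 to 1.74, so no difference was detectable at this depth. The MMP9 row shares exon bases with RP11-465L10.10 on the opposite strand, which had 4 reads under CDK14-sh and 5 under scramble. MMP2, encoding the other gelatinase, had 2 reads under CDK14-sh and 4 under scramble. MMP3 and MMP9 did not reach 1 RPKM in the higher library, so 8 of the 10 genes entered the counts of changed genes.

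MMP14 encodes the membrane-anchored collagenase MT1-MMP, which also activates pro-MMP2 together with TIMP2. Its row is on chromosome 14 from 22836557 to 22849027, plus strand, and shares no exon with another row. MMP14 stood at 138 RPKM under CDK14-sh (9511 reads) and 129 RPKM under scramble (9916 reads), a ratio of 1.07 (1.04 to 1.10). The log2 ratio was 0.09, and it was -0.06 when each library was rescaled to a common sum of RPKM (TPM), so the direction depended on the scale. TPM shifts a plain log2 ratio by -0.15, and the ratios of low genes with 0.1 added by other amounts. MMP1 and MMP14 together made up 99.6% of the summed RPKM of 17 MMP rows under CDK14-sh and 99.4% under scramble.

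The inhibitors TIMP1, TIMP2 and TIMP3 were each lower under CDK14-sh, and the difference was largest for TIMP3. TIMP3 binds to the matrix and also inhibits ADAM17 and several ADAMTS proteases. TIMP3, on chromosome 22 from 32801701 to 32863043, plus strand, stood at 86.0 RPKM under CDK14-sh (6129 reads) and 121 RPKM under scramble (9601 reads). It was 1.41-fold lower (1.36 to 1.45), and 10.1% of the protein-coding rows had a lower ratio. TIMP1, a broad MMP inhibitor, lies on chromosome X from 47582313 to 47586789, within the span of the SYN1 row (47571898 to 47619853). It stood at 29.8 RPKM under CDK14-sh (711 reads) and 37.2 RPKM under scramble (986 reads), which is 1.25-fold lower (1.13 to 1.37). SYN1 had 2 reads in each library.

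TIMP2, the inhibitor that bridges MMP14 and pro-MMP2, lies on chromosome 17 from 78852977 to 78925387, minus strand. It stood at 67.5 RPKM under CDK14-sh (5889 reads) and 72.2 RPKM under scramble (7005 reads), which is 1.07-fold lower (1.03 to 1.11). The TIMP2 row shares exon bases with RP11-323N12.5, a row of 367 exon bases on the opposite strand, and with CEP295NL on the same strand. RP11-323N12.5 had 390 reads under CDK14-sh (68.7 RPKM) and 504 under scramble (79.8 RPKM), and CEP295NL had 300 and 375 reads. Both had fewer reads than TIMP2. Per exon length RP11-323N12.5 stood above TIMP2 in both libraries, but their counting intervals overlapped. These were 62.0 to 75.8 and 65.8 to 69.3 RPKM under CDK14-sh, and 72.9 to 87.0 and 70.5 to 73.9 RPKM under scramble. The origin of reads from the shared exons cannot be told. TIMP4 had 6 reads under CDK14-sh and 7 under scramble. RECK, a membrane-anchored MMP inhibitor, stood at 2.18 RPKM under CDK14-sh and 2.15 RPKM under scramble, a ratio of 1.01 (0.834 to 1.23). Over the 3 TIMPs and RECK, the 4 genes past the filter, the median log2 ratio was -0.21 and 0 passed 2-fold.

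Set against the MMPs, inhibitor transcripts made up a smaller quotient under CDK14-sh. The summed RPKM of TIMP1 to TIMP4 was 0.166 of the summed MMP level under CDK14-sh (184 over 1107 RPKM) and 0.281 under scramble (231 over 822 RPKM). The quotient under CDK14-sh was 0.591 of that under scramble (counting interval 0.574 to 0.609, by the delta method). Without MMP1 it was 1.29 under CDK14-sh and 1.73 under scramble, or 0.745 of the scramble value (0.718 to 0.774). TIMP2 over MMP14 was 0.491 under CDK14-sh and 0.560 under scramble, and TIMP3 over ADAM17 was 5.02 and 7.24. TIMP3 over ADAMTS1 went the other way, at 7.45 under CDK14-sh and 4.88 under scramble, a factor of 1.53 (1.42 to 1.64). A quotient within a library does not depend on how the libraries are scaled to each other. These are transcript levels, and protein or enzyme activity was not measured here.

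**Figure D2:**
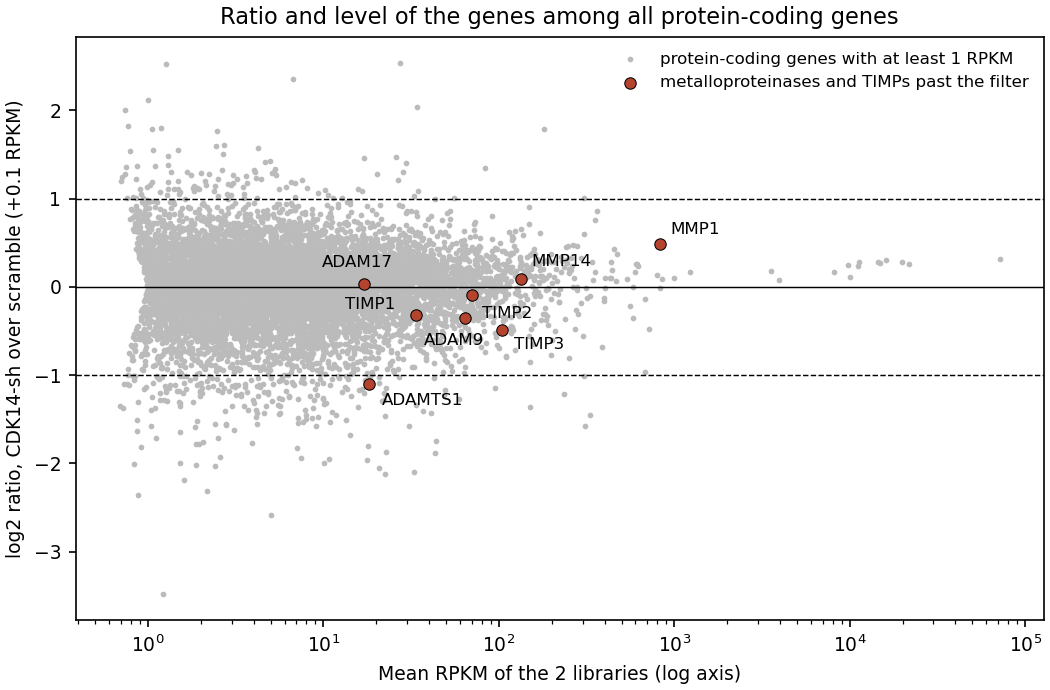
Mean RPKM of both libraries (log axis) against the log2 ratio with 0.1 RPKM added, for protein-coding rows with at least 1 RPKM (grey) and the 8 genes past that filter (red), with dashed lines at 2-fold. ADAMTS1 lies under the lower line at -1.10, and MMP1 stands at 0.49 among the most abundant transcripts.

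Of the 8 genes past the filter, 0 reached 2-fold upward under CDK14-sh and 1 reached it downward, decided on log2((RPKM + 0.1)/(RPKM + 0.1)). Among all 14878 rows past the filter, 3.21% reached 2-fold upward and 3.47% reached it downward. In the 10658 protein-coding rows among them the shares were 1.04% and 2.16%. With 8 genes, 1 call is too few to set against these shares. The median log2 ratio of the 8 was -0.21, against 0.04 over all rows past the filter. Counting intervals lay above a ratio of 1 for 2 of them (MMP1 and MMP14), below it for 5 (TIMP1, TIMP2, TIMP3, ADAM9 and ADAMTS1), and held 1 for ADAM17.

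The gene past 2-fold was ADAMTS1, which encodes a secreted protease that cuts the proteoglycans aggrecan and versican. Its row lies on chromosome 21 from 26835747 to 26845409, minus strand, and shares no exon with another row. ADAMTS1 stood at 11.6 RPKM under CDK14-sh (1263 reads) and 24.8 RPKM under scramble (3019 reads), which is 2.15-fold lower (2.01 to 2.30). Among protein-coding rows, 1.64% had a lower ratio. The log2 ratio was -1.10, and it lay between -1.25 and -1.04 in every setting tried. ADAMTS5, the next metalloproteinase gene on that chromosome, had 0 reads under CDK14-sh and 1 under scramble.

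ADAM17 encodes the sheddase of TNF and of several EGF receptor ligands, and lies on chromosome 2 from 9488486 to 9555792, minus strand. It stood at 17.1 RPKM under CDK14-sh (1457 reads) and 16.7 RPKM under scramble (1581 reads). The ratio of 1.03 (0.954 to 1.10) was within counting error, and its sign turned in TPM (log2 ratio -0.12). The row shares exon bases with IAH1 on the opposite strand, which had 579 reads under CDK14-sh and 709 under scramble.

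ADAM9 encodes a membrane protease with disintegrin domain that binds integrins, and lies on chromosome 8 from 38996869 to 39105144, plus strand. It stood at 56.3 RPKM under CDK14-sh (6026 reads) and 72.1 RPKM under scramble (8581 reads). ADAM9 was 1.28-fold lower (1.24 to 1.32), a log2 ratio of -0.36, with 15.6% of protein-coding rows lower still. Under scramble, ADAM9 and TIMP2 (72.2 RPKM) did not differ beyond counting error. Under CDK14-sh, TIMP2 stood above ADAM9 and their intervals did not overlap.

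**Figure D3:**
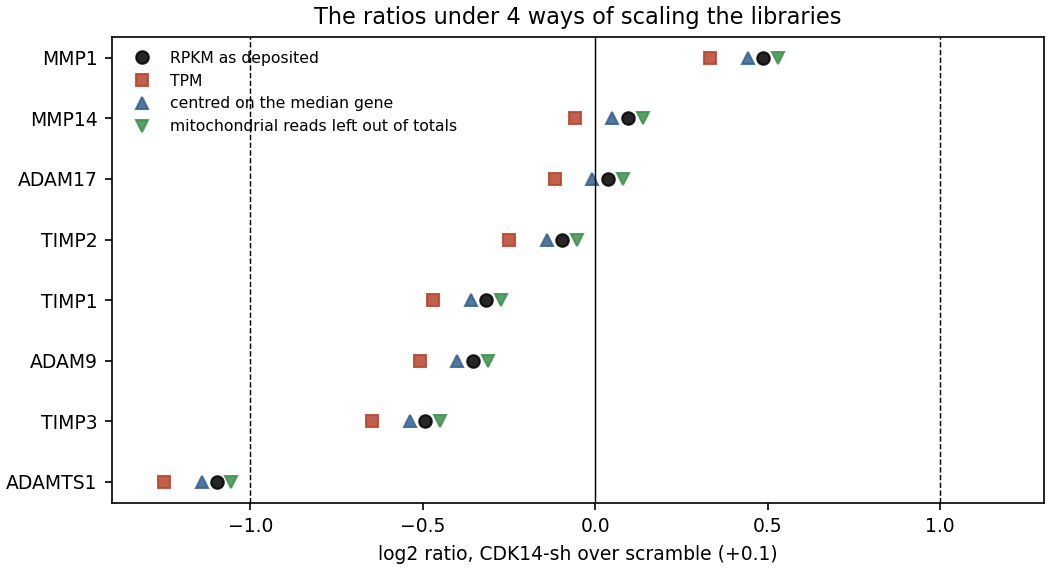
The log2 ratio (0.1 added) of the 8 genes past 1 RPKM under the deposited RPKM, TPM, centring on the median gene, and totals without mitochondrial reads, with dashed lines at 2-fold. ADAMTS1 stays beyond the lower line and the order of the genes is the same in all 4, while MMP14 (-0.06 in TPM) and ADAM17 (-0.12 in TPM) cross 0.

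An earlier analysis of these libraries picked 4 words of 7 bases as frequent in 3' untranslated regions (UTRs) of genes lower under CDK14-sh. They were GTCATGC with its overlapping neighbour TCATGCA, and ATCCATA with its overlapping neighbour TCCATAA. Since the ratios of these libraries chose the words, their presence supports nothing about the genes here. In the longest annotated 3' UTR of each gene, read on the transcript strand, 2 of the 10 genes held at least 1 word: TIMP3 and ADAM9. This share of 20.0% compares with 25.1% of 10394 protein-coding genes with at least 1 RPKM. ADAMTS1, with the lowest ratio of the 10, held none in its 1832 bases, and neither did MMP1 in its 492 bases. GTCATGC alone was in 6.35% of all 3' UTRs searched, and in 11.6% of the 1554 whose length was within 25% of that of TIMP3 (3666 bases).

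The TIMP3 match is printed with 3 matches in genes that act on these enzymes or are related to them. The matches are printed because their carriers lay on both sides of a ratio of 1. These 3 were chosen after their values were seen. They are FURIN, which removes the prodomain of MMP14 and ADAMs, ADAM10, the sheddase closest to ADAM17, and RHBDF2, encoding iRhom2, which carries ADAM17 to the cell surface. ADAM10 held 4 matches and RHBDF2 held 2, of which 1 each is printed. The 3 matches in ADAM9 are not printed. Capitals mark the word, and sequences are from GENCODE v29 transcripts on GRCh38, 5' to 3'.
TIMP3 (chr22:32861320-32861349, plus strand): ttcccattgtgGTCATGCcatttggcaggg
FURIN (chr15:90883123-90883152, plus strand): agcactgacctGTCATGCccccctcaaacc
ADAM10 (chr15:58594561-58594590, minus strand): tgtcaagcaatGTCATGCagtttggggaag
RHBDF2 (chr17:76471133-76471162, minus strand): cctgtgagcccATCCATAaggctctcagat
TIMP3 was 1.41-fold lower and ADAM10 1.16-fold lower (1.09 to 1.23) under CDK14-sh, while FURIN, with the same word, was 2.50-fold higher (2.14 to 2.93). RHBDF2, with the word ATCCATA, was 2.07-fold lower (1.64 to 2.62). A match to these letters is a description and shows no binding.

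In the wider families the genes with at least 1 RPKM went both ways. Of 17 MMP rows, 4 passed 1 RPKM: beside MMP1 and MMP14 these were MMP24, a membrane-type MMP, at 1.13 RPKM under CDK14-sh and 0.618 RPKM under scramble, and MMP19 at 1.20 and 1.57 RPKM. Their ratios were 1.82 (1.25 to 2.68) and 0.768 (0.578 to 1.02). None of the 4 passed 2-fold, and MMP24 reached 1 RPKM under CDK14-sh alone. The median log2 ratio was 0.29 over these 4 rows and 0.032 over all 17. Of 14 ADAM rows, 7 passed 1 RPKM and 0 passed 2-fold, with a median log2 ratio of -0.15. ADAM19, a sheddase of neuregulins, stood at 15.3 RPKM under CDK14-sh and 9.68 RPKM under scramble, 1.58-fold higher (1.47 to 1.69). ADAM15 was 1.34-fold lower (1.23 to 1.46).

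The ADAMTS family held the widest range of ratios among the protease families. Of 21 rows, 8 passed 1 RPKM, with 1 past 2-fold upward, 2 past it downward and a median log2 ratio of -0.20. ADAMTS15, a proteoglycan-cutting relative of ADAMTS1, had 199 reads under CDK14-sh (2.27 RPKM) and 553 under scramble (5.66 RPKM), 2.50-fold lower (2.12 to 2.95). ADAMTS9, another such relative, had 800 reads under CDK14-sh (4.84 RPKM) and 397 under scramble (2.16 RPKM), 2.24-fold higher (1.98 to 2.53). In TPM its log2 ratio was 0.99, just inside 2-fold. ADAMTS12 stood at 3.48 RPKM under CDK14-sh and 3.76 RPKM under scramble, with an interval of the ratio that held 1 (0.823 to 1.04). Among astacins and pappalysins, PAPPA was 1.65-fold lower (1.38 to 1.96), BMP1 had a ratio of 1.17 (0.962 to 1.44), and PAPPA2 stayed under 1 RPKM.

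**Figure D4:**
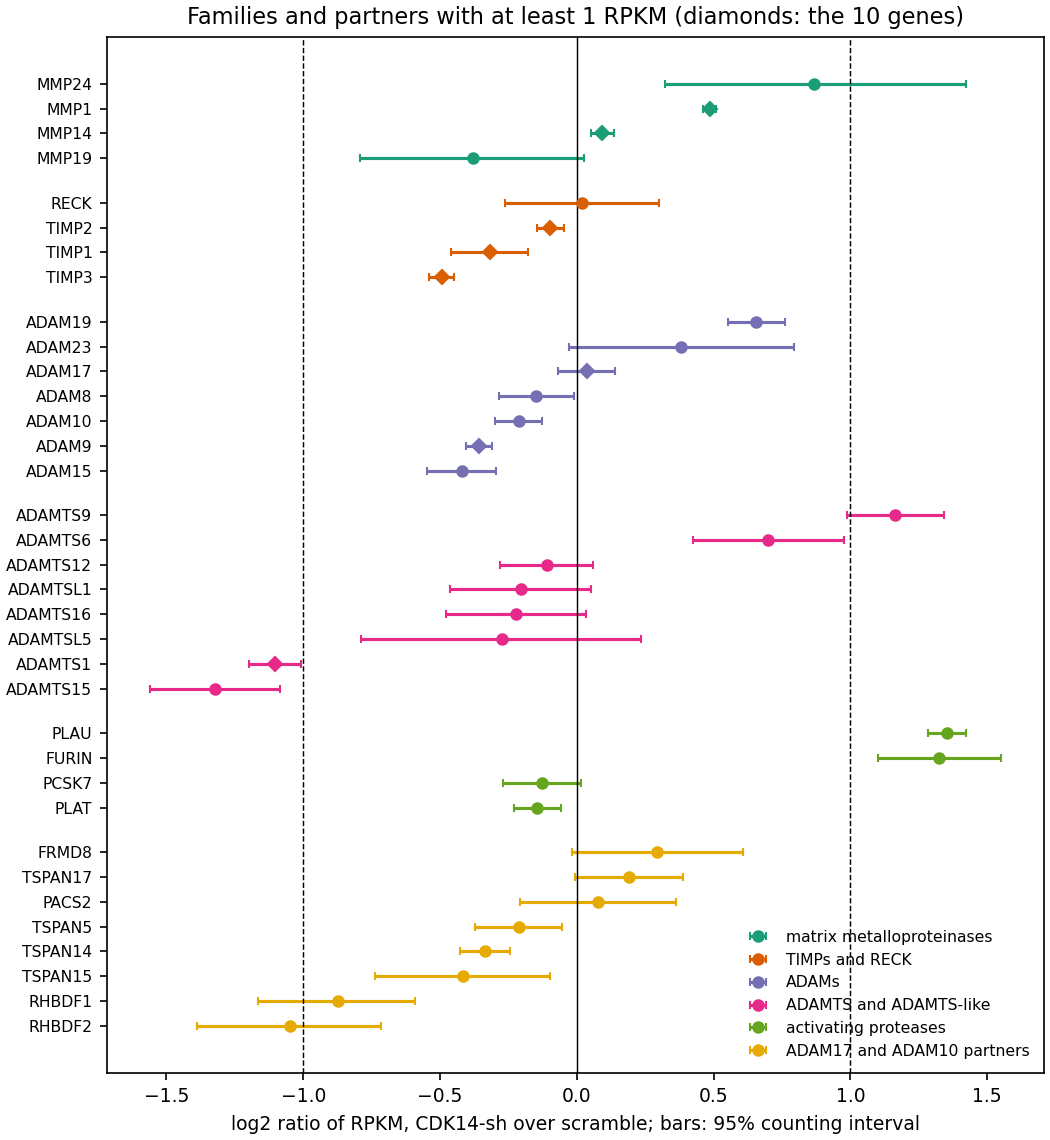
The log2 ratio of RPKM with its 95% counting interval for every gene with at least 1 RPKM in 6 groups of related genes, with diamonds for those of the 10 genes that passed and dashed lines at 2-fold. PLAU, FURIN and ADAMTS9 lie at the upper line or beyond it, and ADAMTS1, ADAMTS15 and RHBDF2 beyond the lower one. With 0.1 RPKM added, RHBDF2 lies inside 2-fold (-0.98).

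Of 4 proteases past 1 RPKM that activate MMPs or ADAMs, 2 passed 2-fold upward and 0 downward. Their median log2 ratio was 0.59, and -0.27 in TPM, where PCSK5 also passed the filter. PLAU, the urokinase gene, stood at 120 RPKM under CDK14-sh and 46.8 RPKM under scramble, 2.56-fold higher (2.44 to 2.68). FURIN stood at 7.26 RPKM (531 reads) and 2.90 RPKM (236 reads). PLAT, encoding tissue plasminogen activator, was at 19.6 and 21.7 RPKM. Of 8 partners of ADAM17 and ADAM10 past the filter, 0 passed 2-fold on the log2 ratio with 0.1 added, though RHBDF2 (-1.15) and RHBDF1 did in TPM. The median log2 ratio of the 8 was -0.27. RHBDF2 stood at 0.998 RPKM under CDK14-sh and 2.06 RPKM under scramble, 2.07-fold lower without the added 0.1. RHBDF1, which encodes iRhom1, had 152 reads under CDK14-sh and 310 under scramble and was 1.83-fold lower (1.51 to 2.24). TSPAN14, TSPAN5 and TSPAN17, the most abundant tetraspanins of the list, had ratios of 0.792, 0.863 and 1.14.

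Surface partners and the inducer of MMPs had a median log2 ratio of -0.58 over 9 genes, with 6 counting intervals below a ratio of 1 and 3 above it, and 0 past 2-fold. In TPM LRP1 (-1.02) and CAV1 passed it downward. CAV1, encoding caveolin-1, was 1.81-fold lower (1.72 to 1.90). BSG, encoding the MMP inducer EMMPRIN, stood at 25.1 RPKM under CDK14-sh and 37.4 RPKM under scramble, 1.49-fold lower (1.40 to 1.59). CD63, a tetraspanin that binds TIMP1, was 1.62-fold lower (1.55 to 1.69), and CD9 was 1.79-fold lower (1.70 to 1.88). CD44, which docks MMP9 and MMP14, was 1.16-fold higher (1.13 to 1.18).

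Among 24 shed substrates past the filter, 1 passed 2-fold upward and 1 downward, with a median log2 ratio of -0.12. In TPM MET (-1.09) passed it downward as well. L1CAM, an adhesion molecule cut by ADAM10 and ADAM17, was 2.45-fold lower (2.21 to 2.73), and IL6R, which reached 1 RPKM under CDK14-sh alone, had 124 reads there and 26 under scramble. SDC4 stood at 194 RPKM under CDK14-sh and 104 RPKM under scramble, 1.87-fold higher (1.80 to 1.94), AXL had a ratio of 0.943, and APP one of 1.09 that lay below 1 in TPM. HBEGF, an ADAM17 substrate, was 1.78-fold higher (1.68 to 1.89). Of 15 matrix substrates past the filter, with a median log2 ratio of -0.06, 0 were 2-fold higher and 1 was 2-fold lower: HSPG2, encoding perlecan, 2.33-fold lower (2.08 to 2.62). THBS1 was 1.58-fold higher, LAMB3 1.20-fold lower and LAMC1 1.20-fold lower.

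Promoters of MMP1, MMP3, MMP9 and TIMP1 are known to respond to AP-1, ETS and NF-kB factors, and these regulators split evenly. Of 19, all past 1 RPKM, 10 had a log2 ratio above 0 and 9 below, the median was 0.01 (-0.14 in TPM), and 0 passed 2-fold on the log2 ratio with 0.1 added. In TPM FOSB (-1.13) and FOSL2 (-1.08) of these passed it downward. Without the added 0.1, FOSB was 2.09-fold lower (1.45 to 3.06) on the deposited RPKM, with 43 reads under CDK14-sh and 100 under scramble. FOSL1 stood at 445 RPKM under CDK14-sh and 263 RPKM under scramble, 1.69-fold higher (1.65 to 1.74), and ELK3 was 1.54-fold higher (1.47 to 1.62). FOSL2 was 1.91-fold lower (1.80 to 2.02) and JUN 1.29-fold lower (1.22 to 1.36). ETS1, at 90.2 and 79.6 RPKM, had a ratio of 1.13 (1.10 to 1.17), and its log2 ratio in TPM was 0.03. The part of any of these factors in the level of MMP1 was not tested.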

How the data were processed

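RNA of 2 libraries was sequenced after a stranded mRNA preparation, per the labels' protocols. Per the file headers, the deposited table gives RPKM, exon positions and summed exon length for each gene row. Tools listed in the submitters' processing notes are featureCounts, Bowtie 0.12.2 and Subread 1.5.1, beside the builds mm8 and GRCh38, without a role for any. The sources used here do not give the counting options. The deposited RPKM times length gave whole reads for 100% of nonzero values within 0.01 read. These recovered reads served for counting intervals only, and RPKM remained the main value. At an exon length of 1 kb, the 3 reads that a count of 0 allows equal 0.194 RPKM under CDK14-sh and 0.174 RPKM under scramble.

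Ratios used log2((RPKM + 0.1)/(RPKM + 0.1)), which understates the change of low genes. A gene was counted from 2-fold, if its higher library reached 1 RPKM. Rows were matched by symbol or RefSeq synonym and position to GENCODE v29 for 21050 rows, and 9 of the 10 genes had the same start and end. Exons of 5 of the 10 overlap another row. The genes, 11 lists of related genes and the words were chosen with earlier results of these data known. Named were the 10 genes and, per list, those past 2-fold and the 3 most abundant; genes named beyond that (MMP2, MMP24, RECK, TIMP4, ADAM10, ADAM15, RHBDF1, RHBDF2, BSG, CAV1, LRP1, HBEGF, MET, FOSB, FOSL2, JUN, listed markers, and neighbouring or overlapping rows) were chosen after their values were seen. With 1 ratio per gene, likeness of pattern was not computed. The functions were checked on simulated reads. Computation ran under Python 3.11.15 with scipy 1.17.1, pandas 2.3.3 and numpy 2.4.6; plots were drawn by matplotlib 3.10.9.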

Additional observations from a re-analysis of the deposited data

How the results depend on the processing

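No paired analysis was possible because a group was a single library, and for the same reason no replicate could be left out. Of the 10 genes, 0 passed 2-fold upward and 1 downward (ADAMTS1) in all 10 alternatives run. Of 85 values of the 10 genes in alternatives, 73 stayed within the counting interval of the reported ratio and 12 moved beyond it. TPM, which shifts plain log2 ratios by -0.15, gave 0.33 for MMP1, -0.059 for MMP14, -0.47 for TIMP1, -0.25 for TIMP2, -0.65 for TIMP3, -1.25 for ADAMTS1, -0.51 for ADAM9 and -0.12 for ADAM17. MMP1 and MMP14 stood at 0.44 and 0.050 with median centring, and at 0.53 and 0.14 without mitochondrial reads in the totals (17.1% of CDK14-sh reads and 14.5% of scramble reads). The sign of ADAM17 also turned with median centring (-0.01).

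Over the whole table, 478 genes passed 2-fold upward and 516 downward. Adding 1 RPKM as pseudocount gave 176 and 259, dropping the level filter 2173 and 2043, and asking for 5 RPKM 83 and 177. TPM gave 609 and 1128. Rows overlapping no other gave 307 and 315, protein-coding rows 111 and 230, and a 1.5-fold threshold 1355 and 1421.

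Each list median was set against a range from the median lower to the median upper counting limit of its genes. This range is not an interval of the median itself. Of 106 medians of gene lists in alternatives, 16 moved beyond that range and 5 changed sign. The median over those of the 10 genes past the filter was -0.053 without mitochondrial reads and -0.36 over rows overlapping no other. The MMP median was 0.032 with no level filter, 0.14 in TPM, 0.53 without mitochondrial reads and 0.093 over rows overlapping no other. TIMPs and RECK stood at -0.10 with no level filter, and the ADAMTS list at -1.19 with at least 5 RPKM. Activating proteases stood at -0.12 with no level filter, 1.29 with at least 5 RPKM and -0.27 in TPM. ADAM17 and ADAM10 partners stood at -0.42 in TPM, surface partners at -0.73 in TPM and -0.84 over rows overlapping no other, matrix substrates at -0.26 over such rows, and AP-1, ETS and NF-kB regulators at -0.14 in TPM. Filters, TPM and totals without mitochondrial reads alter which genes pass 1 and so enter a median. In the last of these settings, the MMP median of 0.53 was the value of MMP1. There the median of -0.053 over the 10 genes was the value of TIMP2. TIMP over MMP level was 0.325 under CDK14-sh and 0.524 under scramble when reads replaced RPKM. For MMP3 and MMP9, with 12 to 31 reads, depth limits what can be seen.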

Other observations

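Some low rows of the same families, chosen after their values were seen, differed by more than their counting error, though they stayed under 1 RPKM in both libraries. ADAMTS3, a procollagen-processing protease, had 70 reads under CDK14-sh and 43 under scramble, a ratio of 1.81 (1.22 to 2.71). ADAMTSL4 had 28 reads under CDK14-sh and 72 under scramble, 2.31-fold lower (1.48 to 3.72), and PCSK5, a convertase related to furin, had 86 and 171 reads, 1.79-fold lower (1.37 to 2.34). ITGB3, which pairs with the integrin subunit ITGAV, had 10 and 27 reads.

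Antisense rows beside protease genes did not all follow their partners, and the sources used here do not say whether counting used strand. ADAMTS9-AS1 had 58 reads under CDK14-sh and 24 under scramble, and MMP24-AS1 stood at 4.47 RPKM under CDK14-sh and 3.36 RPKM under scramble, 1.33-fold higher (1.14 to 1.55). Both partner genes were higher under CDK14-sh too. ADAMTS9-AS2 went the other way from ADAMTS9, with 5 and 12 reads and a ratio of 0.463 whose interval held 1 (0.128 to 1.41). ADAMTSL4-AS1 had 7 and 17 reads. MMP24-AS1 and ADAMTSL4-AS1 each overlap 2 other rows, ADAMTS9-AS1 overlaps 1, and ADAMTS9-AS2 overlaps 0.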
